A study of Mus musculus with 16 samples.

Results

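Horizontal basal cells are the quiescent reserve stem cells of the olfactory epithelium. They lie flat on the basement membrane and are defined by the basal keratins Krt5 and Krt14, the transcription factor p63 (gene Trp63), the adhesion molecule Icam1, the hemidesmosome integrins Itga6 and Itgb4, and the growth factor receptor Egfr. Described here are these 7 genes together with Cd44, the cell surface receptor for hyaluronan. The 8 genes were taken by their symbols in the platform annotation, and each had 1 of the 22206 probe sets tested. Cd44 was included with its undecanal values in these arrays already known, so its values are given as a description, with no test in any comparison.

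In the undamaged epithelium horizontal basal cells rarely divide, and p63 holds them in that resting state. After injury that removes the other cell types they leave it, divide, and give rise to globose basal cells, neurons and sustentacular cells. Integrin alpha 6 and beta 4 join into 1 receptor that anchors basal cells to laminin, ICAM1 is a ligand of leukocyte integrins and a surface handle for sorting these cells, and EGF receptor signals drive their proliferation. CD44 is found on basal epithelial cells and also on most leukocytes.

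The data were log2 probe set levels from 16 Clariom S arrays of sorted olfactory mucosa cells of C57BL/6 mice that carry S100a5-tauGFP. In such mice S100a5, a gene that olfactory sensory neurons transcribe when they are active, drives a fusion of tau and green fluorescent protein (GFP). The 24 mice of both sexes, 7 to 12 weeks old, sat singly in chambers with clean air flowing at 3.1 L/min for 40 h. They received undecanal, a fatty aldehyde odorant, or filtered air as vehicle, for 10 s every 20 min, after the first 26 h. Mucosa of 3 mice was pooled and sorted, which gave 4 groups of 4 arrays: undecanal arrays titled GFP+, undecanal arrays titled GFP-, vehicle arrays titled GFP+ and vehicle arrays titled GFP-. The 2 fractions of a pool came from the same mice, so there were 4 pools per agent. The question of the assay is which genes differ in the neurons that respond to an odorant, and the genes described here mark a cell type other than those neurons.

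For 16 of 16 samples the sign of GFP in the title was the reverse of the sign in the characteristics, so fractions are named by their titles. S100a5 itself went against the titles. It averaged 15.77 ± 0.141 (SD, n = 4) on undecanal arrays titled GFP+ and 16.73 ± 0.308 on those titled GFP-, and 15.66 ± 0.126 on vehicle arrays titled GFP+ and 16.58 ± 0.26 on those titled GFP-. In 4 of 4 undecanal pools (limma adjusted p = 0.000394) and 4 of 4 vehicle pools (limma adjusted p = 0.000715) the array titled GFP+ had the lower value. If the characteristics are right, each difference between fractions given below turns its sign, as does the interaction, while a difference with undecanal inside a fraction keeps it. Omp, the marker of mature olfactory neurons, averaged 18.80 and 18.85 on undecanal arrays titled GFP+ and GFP-, and 18.83 and 18.83 on vehicle arrays titled GFP+ and GFP-.

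A background level of log2 4.802 was set as the 95th percentile of the group means of 356 probe sets of vomeronasal and bitter taste receptors, receptor families of other sensory cells. Of all probe sets, 64.8% had a group mean above it in at least 1 group. Only Itga6 and Cd44 of the 8 genes did. Krt5, Krt14, Trp63, Icam1, Itgb4 and Egfr lay below it on all 16 arrays, and the highest single value among them was 4.70, for Icam1 on 1 vehicle array titled GFP+. The 3 genes that define horizontal basal cells most closely, Krt5, Krt14 and Trp63, were therefore not measured above background in either fraction of either agent. The set is therefore described by its genes and not as a readout of that cell type, and Itga6 and Cd44 carry its measured signal.

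The promoters of Krt5 and Cd44 are shown because these genes stand at the opposite ends of the set: Krt5, the defining keratin, below background on every array, and Cd44, with the widest spread between groups. The set of RefSeq promoters of assembly GRCm38.p6 used here held 5 of the 8 genes, and not Trp63, Itga6 and Itgb4. The 250 bases before the gene's start are printed 5′ to 3′ on the gene's strand. Capitals mark the matches to 5 motifs, which were chosen after the sequences had been seen: the p53 family half-site in Krt5, 95 to 86 bases before the start, and the Egr core in Cd44, 27 to 21 bases before it. The Krt5 stretch lies at chr15:101712906-101713155 on the minus strand and the Cd44 stretch at chr2:102901666-102901915 on the minus strand.
Krt5: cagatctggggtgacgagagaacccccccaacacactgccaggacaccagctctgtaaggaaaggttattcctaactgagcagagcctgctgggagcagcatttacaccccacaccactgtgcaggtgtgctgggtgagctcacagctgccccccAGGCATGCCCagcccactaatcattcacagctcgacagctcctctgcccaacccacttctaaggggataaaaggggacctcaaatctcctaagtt
Cd44: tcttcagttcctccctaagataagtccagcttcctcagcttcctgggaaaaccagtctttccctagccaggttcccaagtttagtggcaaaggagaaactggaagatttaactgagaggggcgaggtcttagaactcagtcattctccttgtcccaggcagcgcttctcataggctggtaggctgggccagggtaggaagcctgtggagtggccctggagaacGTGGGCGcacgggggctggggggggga
A match is a match of letters and not a binding site. Searched on both strands of 32851 promoter windows of the same length, the p53 family half-site was in 1.63%, the Egr core GTGGGCG in 7.02%, the GC box GGGCGG in 32.7%, the AP-1 core TGANTCA in 6.75% and the TATA box TATAAA in 12.4%. The half-site was searched only with CATG at its centre, as RRRCATGYYY, where R is A or G and Y is C or T. The windows of Icam1 and Egfr held a GC box, 17 to 12 and 9 to 4 bases before the start, and that of Krt14 held none of these letters. The Egr core and the GC box can share letters.

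Of the 8 genes, Cd44 had the largest differences between groups. On undecanal arrays titled GFP+ Cd44 read 10.21, 10.53, 9.98 and 9.12, on undecanal arrays titled GFP- 6.98, 6.54, 5.89 and 5.48, on vehicle arrays titled GFP+ 9.65, 10.28, 9.92 and 9.49, and on vehicle arrays titled GFP- 2.50, 4.13, 4.87 and 3.59. The 2 groups titled GFP+ overlapped and lay above all arrays titled GFP-, and every undecanal array titled GFP- lay above every vehicle array titled GFP-. The group means in order were 9.96 ± 0.606 (undecanal, titled GFP+), 9.84 ± 0.345 (vehicle, titled GFP+), 6.22 ± 0.666 (undecanal, titled GFP-) and 3.77 ± 0.997 (vehicle, titled GFP-; SD, n = 4 each). In the lowest group 1 of 4 arrays was above background.

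**Figure D1:**
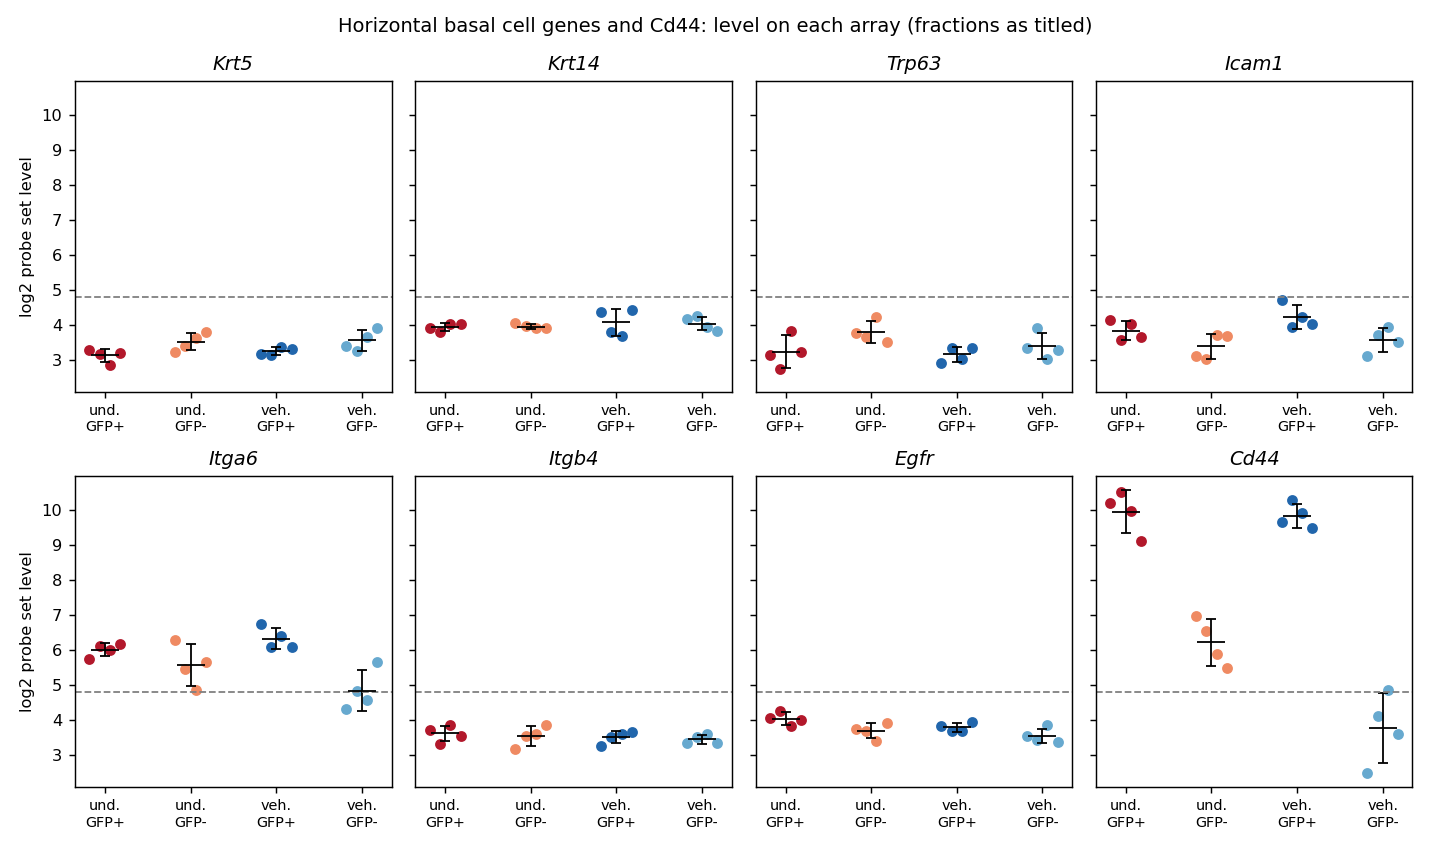
Log2 level of each of the 8 genes on each of the 16 arrays (points), with the group mean (bar) and SD (whiskers, n = 4) and the background level of 4.802 (dashed line). Groups run, left to right, undecanal (und.) titled GFP+, undecanal titled GFP-, vehicle (veh.) titled GFP+ and vehicle titled GFP-. Krt5, Krt14, Trp63, Icam1, Itgb4 and Egfr stay under the line on all arrays, and Cd44 is near 10 in both groups titled GFP+.

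With undecanal, Cd44 in arrays titled GFP- differed from vehicle by 2.45 on the log2 scale, or 5.45-fold. Because 3 of the 4 vehicle arrays were below background, each array below it was also set to the background level, a step chosen after seeing the data. The means were then 6.22 with undecanal and 4.82 with vehicle, and the difference was 1.40, so Cd44 was at least 2.64-fold higher. In arrays titled GFP+ the difference was 0.13, and the agents overlapped. The interaction, which is the undecanal difference in titled GFP+ minus that in titled GFP-, was -2.32 as deposited, and -1.28 with values below background set to it.

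Between fractions, Cd44 was higher in the array titled GFP+ of every pool. The differences of the 4 undecanal pools were 3.24, 3.99, 4.10 and 3.64, and those of the 4 vehicle pools were 7.15, 6.15, 5.05 and 5.90. The mean difference was 3.74 (13.4-fold) in undecanal pools and 6.06 in vehicle pools, which with the vehicle arrays at their background bound was 5.02, at least 32.4-fold. In bulk samples, fewer cells of a type and less RNA per cell cannot be told apart.

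Markers of leukocytes moved with Cd44 between fractions. Of all probe sets, 8.83% passed as higher in titled GFP+ of undecanal pools and 8.82% in vehicle pools. All 12 of 12 leukocyte and neutrophil genes, among them Lcn2 and S100a9, passed as higher in titled GFP+ in undecanal pools and in vehicle pools, with medians of 5.39 and 5.42 on the log2 scale. Their mean level per array ran over 10.21 to 11.64 (undecanal, titled GFP+), 4.85 to 5.42 (undecanal, titled GFP-), 10.54 to 11.59 (vehicle, titled GFP+) and 5.03 to 5.37 (vehicle, titled GFP-). In titled GFP-, 5 of the 12 genes had a group mean above background with undecanal and 7 of 12 with vehicle. Markers of microvillar cells also moved, 8 of 8 higher in titled GFP+ with either agent, with array means of 7.96 to 8.58 (undecanal, titled GFP+), 4.73 to 5.19 (undecanal, titled GFP-), 7.42 to 8.43 (vehicle, titled GFP+) and 4.46 to 4.82 (vehicle, titled GFP-). Their part in the Cd44 difference between fractions was not tested. For undecanal minus vehicle in titled GFP-, Cd44 differed by at least 1.40. The leukocyte genes had a median difference of -0.21 with 4 of 12 above 0, but part of them lay below background there, where levels have no order. Those with means above background in all 4 groups differed by 0.75 (Ptprc), 0.36 (Lcp1), 0.19 (Laptm5), -0.36 (Fcer1g) and -0.28 (Lcn2). The microvillar genes had a median of 0.14 with 7 of 8 above 0, and 0 of either list passed.

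**Figure D2:**
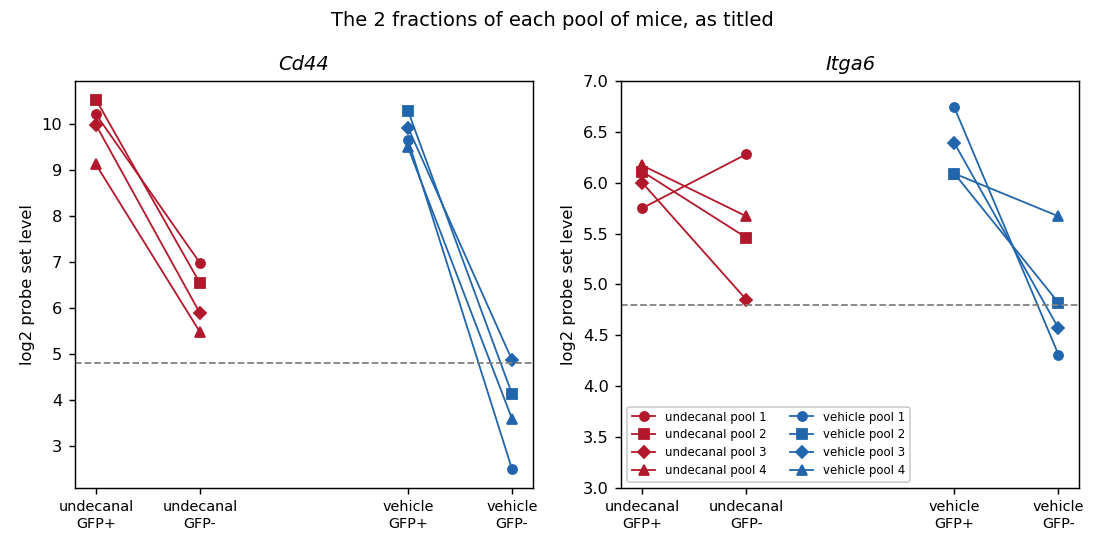
Log2 level of Cd44 (left panel) and Itga6 (right panel) in the 2 fractions of each pool of 3 mice, titled GFP+ left of titled GFP-, with a line joining the arrays of 1 pool and the background level dashed. Cd44 is lower in the array titled GFP- of all 8 pools, and the lines of the undecanal pools (3.24 to 4.10) are shallower than those of the vehicle pools (5.05 to 7.15). Itga6 is lower there in 3 of 4 undecanal pools and 4 of 4 vehicle pools.

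Itga6 was the other gene with a signal above background. It read 5.75, 6.11, 6.00 and 6.17 on undecanal arrays titled GFP+, 6.28, 5.46, 4.85 and 5.67 on undecanal arrays titled GFP-, 6.74, 6.09, 6.39 and 6.09 on vehicle arrays titled GFP+, and 4.31, 4.82, 4.57 and 5.67 on vehicle arrays titled GFP-. The fractions of the vehicle pools did not overlap, those of the undecanal pools did, and so did the agents in each fraction. Its group means were 6.01 ± 0.186 (undecanal, titled GFP+), 5.57 ± 0.592 (undecanal, titled GFP-), 6.33 ± 0.311 (vehicle, titled GFP+) and 4.84 ± 0.59 (vehicle, titled GFP-; SD, n = 4 each). Ordered by level, the vehicle group titled GFP+ stood first and the vehicle group titled GFP- last, and each neighbouring pair overlapped.

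In vehicle pools Itga6 was 1.48 higher in titled GFP+ on the log2 scale, 2.8-fold (SE 0.288, 95% interval 0.88 to 2.09, limma adjusted p = 0.00122), and higher in 4 of 4 pools. The Itga6 difference between fractions was known when the genes were chosen, so this p-value is not independent support for it. With the 2 vehicle arrays titled GFP- that were below background set to it, the difference was 1.31, or 2.47-fold. In undecanal pools the difference was 0.44 (SE 0.288, 95% interval -0.17 to 1.05, limma adjusted p = 0.394), with 3 of 4 pools higher in titled GFP+, and in pool 1 the sign was the other way (-0.54). The difference between those 2 fraction differences, the interaction, was -1.05 (SE 0.408, 95% interval -1.91 to -0.19, limma unadjusted p = 0.0199) and did not pass over all probe sets (limma adjusted p = 1). The leukocyte and microvillar lists given above moved in the same direction between fractions. So did 5 of 8 sustentacular cell genes in pools of either agent, beside 8.83% (undecanal) and 8.82% (vehicle) of all probe sets. The part of these lists in the Itga6 difference was not tested.

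Undecanal minus vehicle for Itga6 was -0.32 in titled GFP+ (SE 0.288, 95% interval -0.93 to 0.28, limma adjusted p = 0.999) and 0.72 in titled GFP- (SE 0.288, 95% interval 0.12 to 1.33, limma unadjusted p = 0.0225, limma adjusted p = 1). Neither passed. The highest Itga6 value in titled GFP-, 6.28, came from undecanal pool 1, and the value of 5.67 in vehicle pool 4 stood above the other vehicle arrays of that fraction.

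Over the 16 arrays, the 3 probe sets whose level ran most like that of Itga6 were Gpx6, a sustentacular cell gene (Pearson r = 0.849), Asap1 (r = 0.841) and Ptpn7 (r = 0.834). For Cd44 they were Ifi30 (r = 0.963), Cd14, a receptor of monocytes (r = 0.95), and the odorant receptor Olfr1215 (r = 0.948). These values include the difference between fractions. Taken on the deviations of each array from its group mean, r was 0.477, 0.727 and 0.649 for the first 3 and 0.542, -0.293 and 0.678 for the others. The 2 genes did not follow each other inside groups, with r = 0.17 between the deviations of Itga6 and Cd44 over 16 arrays.

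Icam1 came next to the threshold in vehicle pools without passing it, and all its values were below background, where levels have no order. It read 4.13, 3.56, 4.03 and 3.65 on undecanal arrays titled GFP+, 3.12, 3.03, 3.70 and 3.68 on undecanal arrays titled GFP-, 4.70, 3.93, 4.22 and 4.04 on vehicle arrays titled GFP+, and 3.11, 3.72, 3.93 and 3.52 on vehicle arrays titled GFP-. The fractions overlapped in undecanal pools, and in vehicle pools they met at 3.93 without overlap. The fractions differed by 0.46 in undecanal pools (SE 0.222, limma adjusted p = 0.22) and by 0.66 in vehicle pools (SE 0.222, 95% interval 0.19 to 1.12, limma adjusted p = 0.0596), with 3 of 4 and 4 of 4 pools above 0. The vehicle difference passed with quantile normalization (0.68, limma adjusted p = 0.0323), with centring on mature neuron genes (0.93, limma adjusted p = 0.0104) and with array weights (0.68, limma adjusted p = 0.0493). These were 3 of 15 alternatives, over which it ran from 0.30 to 0.93 (limma adjusted p 0.0104 to 0.418). In titled GFP+ Icam1 differed with undecanal by -0.38 (SE 0.222, 95% interval -0.85 to 0.09, limma adjusted p = 0.999).

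Trp63, which encodes p63, was below background on every array, so its levels have no order and its differences are given as numbers only. Its values were 3.15, 2.73, 3.84 and 3.24 on undecanal arrays titled GFP+, 3.77, 3.66, 4.23 and 3.51 on undecanal arrays titled GFP-, 2.91, 3.35, 3.04 and 3.33 on vehicle arrays titled GFP+, and 3.35, 3.92, 3.04 and 3.27 on vehicle arrays titled GFP-. The fraction difference in undecanal pools was -0.55, below 0 in 4 of 4 pools (SE 0.232, 95% interval -1.04 to -0.06), and did not pass (limma adjusted p = 0.146). With arrays centred on their median it passed (difference -0.91, limma adjusted p = 0.00661), and so it did in vehicle pools (difference -0.59, limma adjusted p = 0.0424). Of the 22206 probe sets, 11129 (undecanal) and 11231 (vehicle) passed as lower with that centring. Passing there therefore does not set Trp63 apart. With the pool as a block, which allows for a common correlation of 0.167 between the 2 arrays of a pool, the difference of -0.55 passed (limma adjusted p = 0.0404). Over 15 alternatives the difference ran from -0.91 to -0.32 in undecanal pools, where 2 passed. In vehicle pools it ran from -0.59 to 0.04, and 1 passed. In vehicle pools the difference as deposited was -0.24 (SE 0.232, limma adjusted p = 0.564). With undecanal it differed by 0.08 in titled GFP+ and by 0.40 in titled GFP- (SE 0.232 each), with limma adjusted p of 0.999 and 1.

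Of the 2 basal keratins, Krt5 ran between 2.85 and 3.92 and Krt14 between 3.67 and 4.43 over the 16 arrays. Both keratins, Itgb4 and Egfr were below background throughout, and the same limit holds for their differences. Krt5 differed between fractions by -0.38 in undecanal pools (SE 0.166, limma adjusted p = 0.16) and by -0.31 in vehicle pools (SE 0.166, limma adjusted p = 0.253), without passing. With arrays centred on their median Krt5 passed in both (differences -0.74 and -0.67, limma adjusted p = 0.00356 and 0.00583). That was 1 of 15 alternatives, over which Krt5 ran from -0.74 to -0.15 in undecanal pools and from -0.67 to -0.04 in vehicle pools. Median centring made 11129 (undecanal) and 11231 (vehicle) of the 22206 probe sets pass as lower, so passing there does not set Krt5 apart. As deposited, Krt14 differed between fractions by -0.01 in undecanal and 0.02 in vehicle pools. With undecanal the 2 keratins differed by -0.12 each in titled GFP+, and by -0.05 (Krt5) and -0.09 (Krt14) in titled GFP-.

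The partner integrin Itgb4 ran between 3.17 and 3.87 and the receptor Egfr between 3.38 and 4.26. Itgb4, whose protein pairs with integrin alpha 6 in hemidesmosomes, differed by at most 0.10 in any comparison and was not above background on the arrays where Itga6 was. Egfr differed between fractions by 0.35 in undecanal pools, above 0 in 4 of 4 (SE 0.151, 95% interval 0.03 to 0.67, limma adjusted p = 0.156), and by 0.24 in vehicle pools, above 0 in 3 of 4 (SE 0.151, limma adjusted p = 0.333). With arrays centred on mature neuron genes it passed in both (differences 0.59 and 0.52, limma adjusted p = 0.014 and 0.0288). That was 1 of 15 alternatives, over which Egfr ran from -0.01 to 0.59 in undecanal pools and from -0.11 to 0.52 in vehicle pools. With undecanal it differed by 0.25 in titled GFP+ (SE 0.151, 95% interval -0.07 to 0.56) and by 0.14 in titled GFP- (SE 0.151, 95% interval -0.18 to 0.46), and passed in neither.

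Counted over the 7 genes with a test, 0 passed for undecanal in titled GFP+, where 0.0045% of all probe sets did, and 0 in titled GFP-, where 0% did. At an unadjusted limma p under 0.05 the counts were 0 of 7 in titled GFP+, against 2.72% of all probe sets, and 1 of 7 in titled GFP-, against 4.12%. Between fractions 0 of 7 passed in undecanal pools, where 13.2% of all probe sets did (8.83% higher and 4.36% lower in titled GFP+), and 1 of 7 in vehicle pools, where 13.9% did (8.82% higher and 5.12% lower). That 1 was Itga6, whose difference between fractions was known when the genes were chosen. With arrays centred on their median 1584 probe sets were higher and 11129 lower in undecanal pools, against 1960 and 969 as deposited, and 1570 higher and 11231 lower in vehicle pools, against 1959 and 1138. For the interaction it was 0 of 7, against 0% of all probe sets, and 1 of 7 at an unadjusted limma p under 0.05, against 2.63%. Groups did not overlap for 0 of 8 genes with undecanal in titled GFP+ (1.87% of all probe sets, 1.11% as higher), for 1 of 8 in titled GFP- (2.2%, 1.18% as higher), for 1 of 8 between fractions of undecanal pools (17.3%, 9.43% as higher) and for 3 of 8 between those of vehicle pools (18.1%, 9.83% as higher). All of these were higher in the group named first. Cd44 makes the 1 in titled GFP- and is among those counted between fractions, and the choice of the gene rests on those values. The median difference of the 7 genes was -0.12 and 0.09 with undecanal in titled GFP+ and titled GFP-, where that of all probe sets was 0.01 and 0.00. Between fractions it was 0.07 in undecanal pools and 0.06 in vehicle pools, and -0.11 for all probe sets in each.

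**Figure D3:**
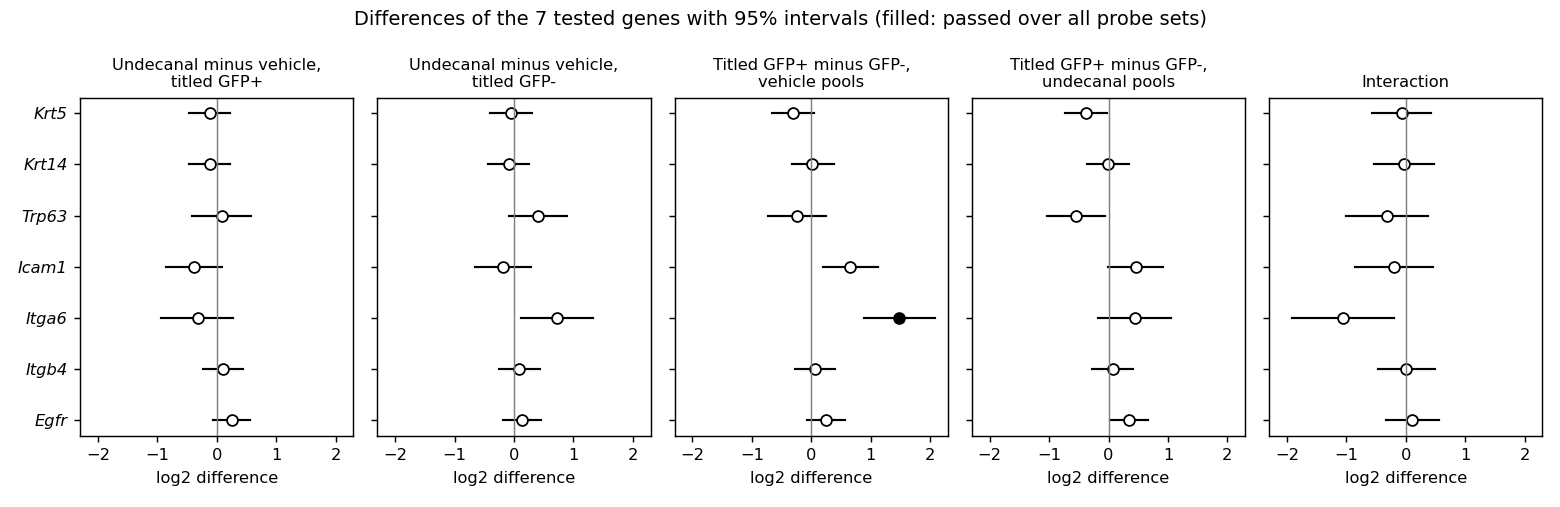
Log2 differences (circles) of the 7 tested genes with 95% intervals (lines) in the 5 comparisons: the agents in each fraction (undecanal minus vehicle), the fractions in each agent (GFP+ minus GFP-, as titled), and the interaction. The 1 filled circle, Itga6 in vehicle pools at 1.48, is the only one that passed at a limma adjusted p under 0.05 over all probe sets. Its difference between fractions was known when the genes were chosen.

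Inside groups the 8 genes did not move as 1 set. Over the deviations of the 16 arrays from their group means, the highest correlation between any pair was 0.41 (Icam1 and Itgb4) and the lowest -0.73 (Trp63 and Egfr). Pairs that act together in basal cells were at -0.45 (Krt5 and Krt14) and -0.45 (Itga6 and Itgb4). Most of these values lie below background, and they are given with no test.

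Genes that work with the 8 in basal cells were read from 6 lists. Of all probe sets, 8.83% passed as higher in titled GFP+ of undecanal pools and 8.82% in vehicle pools. Around the hemidesmosome integrins, Itgb1, the common beta 1 integrin, was higher in titled GFP+ of undecanal pools by 0.58 (limma adjusted p = 0.0059) and of vehicle pools by 0.67 (limma adjusted p = 0.00156). Cd151, a tetraspanin of laminin-binding integrins, differed by 0.49 in undecanal pools (limma adjusted p = 0.207) and was higher by 0.84 in titled GFP+ of vehicle pools (limma adjusted p = 0.0185). These were the passing ones among 8 measured genes, 1 in undecanal and 2 in vehicle pools, with list medians of -0.05 and 0.04 beside -0.11 for all probe sets. These calls ended with median centring and, for Itgb1, without undecanal pool 2 (0.50) or 3 (0.51), and for Cd151 with quantile normalization and without vehicle pool 1 (0.82) or 4 (0.77). Among 11 genes regulated by p63, Dsp, a desmosome gene, was the 1 that passed, higher by 0.87 in undecanal pools (limma adjusted p = 0.0169) and by 0.80 in vehicle pools (limma adjusted p = 0.0281). The list medians were -0.02 and -0.12, and 1 of 11 is near the share of all probe sets. The Dsp call ended without undecanal pool 4 (0.56), without any 1 of the 4 vehicle pools (0.65 to 0.91) and with median centring or quantile normalization.

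The counts of the next lists stand beside 8.83% of all probe sets that passed as higher in titled GFP+ of undecanal pools and 8.82% in vehicle pools. Of 9 EGF receptor ligands and partners, 2 passed as higher in titled GFP+ of undecanal pools and 1 in vehicle pools, with list medians of 0.14 and 0.13. Erbb2, the partner receptor without a ligand of its own, passed with differences of 0.60 (limma adjusted p = 0.0107) and 0.67 (limma adjusted p = 0.00462), but all its group means were below background. Of 10 genes of the Notch pathway, which acts in the choice between fates of basal cells, 2 passed as higher in undecanal and 3 in vehicle pools, with list medians of 0.17 and 0.18. The receptor Notch2 was higher by 1.07 in undecanal pools (limma adjusted p = 0.0042) and by 1.37 in vehicle pools (limma adjusted p = 0.000429). The target gene Hey1 was higher by 0.70 (limma adjusted p = 0.0059) and 0.55 (limma adjusted p = 0.0296), and the ligand Dll1, below background in all groups, differed by 0.96 in vehicle pools (limma adjusted p = 0.00853). Without undecanal pool 2 the calls of Erbb2 (0.60) and Hey1 (0.63) ended in undecanal pools, and without pool 3 that of Erbb2 (0.50). In vehicle pools they ended without pool 2 for Erbb2 (0.57), without pool 1 for Dll1 (0.69) and without pool 1, 2 or 4 for Hey1 (0.58, 0.49 and 0.49). Directions in these 4 lists depended on the scaling. With every array centred on its median their medians in vehicle pools were -0.32 (hemidesmosome), -0.48 (p63), -0.22 (EGF receptor) and -0.18 (Notch). Then 0, 0, 0 and 2 genes were higher and 3, 4, 3 and 3 lower. Of the 22206 probe sets, 11231 passed as lower in vehicle pools with that centring, and the median of all was -0.469. These counts of lower genes therefore do not set the lists apart from the array.

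Partners of CD44 and of ICAM1 held the largest differences. Of 9 genes of hyaluronan and CD44 partners, 5 passed as higher in titled GFP+ of undecanal pools and 6 in vehicle pools, with medians of 0.90 and 0.93. Mmp9, a matrix protease that binds CD44 and is abundant in neutrophils, was higher by 7.61 (limma adjusted p = 5.02e-13) and 7.65 (limma adjusted p = 4.53e-13). Rdx and Ezr, which tie the tail of CD44 to actin, were higher by 3.60 and 3.09 in undecanal pools and by 3.26 and 2.97 in vehicle pools, with limma adjusted p of at most 1.77e-07. The receptor Hmmr differed by 0.89 in undecanal pools (limma adjusted p = 0.117) and was higher by 1.29 in those given vehicle (limma adjusted p = 0.0171). Its call ended without vehicle pool 2 (1.21) or 4 (1.23), and it passed without undecanal pool 2 (1.27). The other passing genes were Msn and Mmp14, named after their values were seen, and the hyaluronan synthases Has1, Has2 and Has3 did not pass and were below background in all groups.

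Of the 4 leukocyte integrin genes whose products bind ICAM1, 3 passed in pools of either agent. Itgam was higher in titled GFP+ by 6.20 in undecanal pools (limma adjusted p = 5.31e-11) and by 6.35 in vehicle pools (limma adjusted p = 3.37e-11). Itgb2, its partner chain, was higher by 5.28 (limma adjusted p = 3.77e-10) and 5.91 (limma adjusted p = 9.18e-11). Itgax, below background in all groups, passed with differences of 1.13 (limma adjusted p = 0.000273) and 0.69 (limma adjusted p = 0.0181), and the vehicle call ended with median centring and without pool 1 (0.56), 2 (0.61) or 4 (0.66). The medians of the last 2 lists stayed positive when arrays were centred on their median, quantile normalized or centred on mature neuron genes. These lists overlap in content with leukocyte markers, which moved between fractions as given above, and their part was not tested.

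With undecanal, 0 genes of these 6 lists passed in either fraction or for the interaction. The smallest p-values belonged to Lama3, a laminin chain, which differed by -0.58 in titled GFP+ (SE 0.253, limma adjusted p = 0.999), and to Pkp1, a desmosome plaque gene, which differed by 0.49 in titled GFP- (SE 0.163, limma adjusted p = 1). For the interaction it was Erbb4, at 0.59 (SE 0.312, limma adjusted p = 1). Pkp1 and Erbb4 were below background in all groups.

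**Figure D4:**
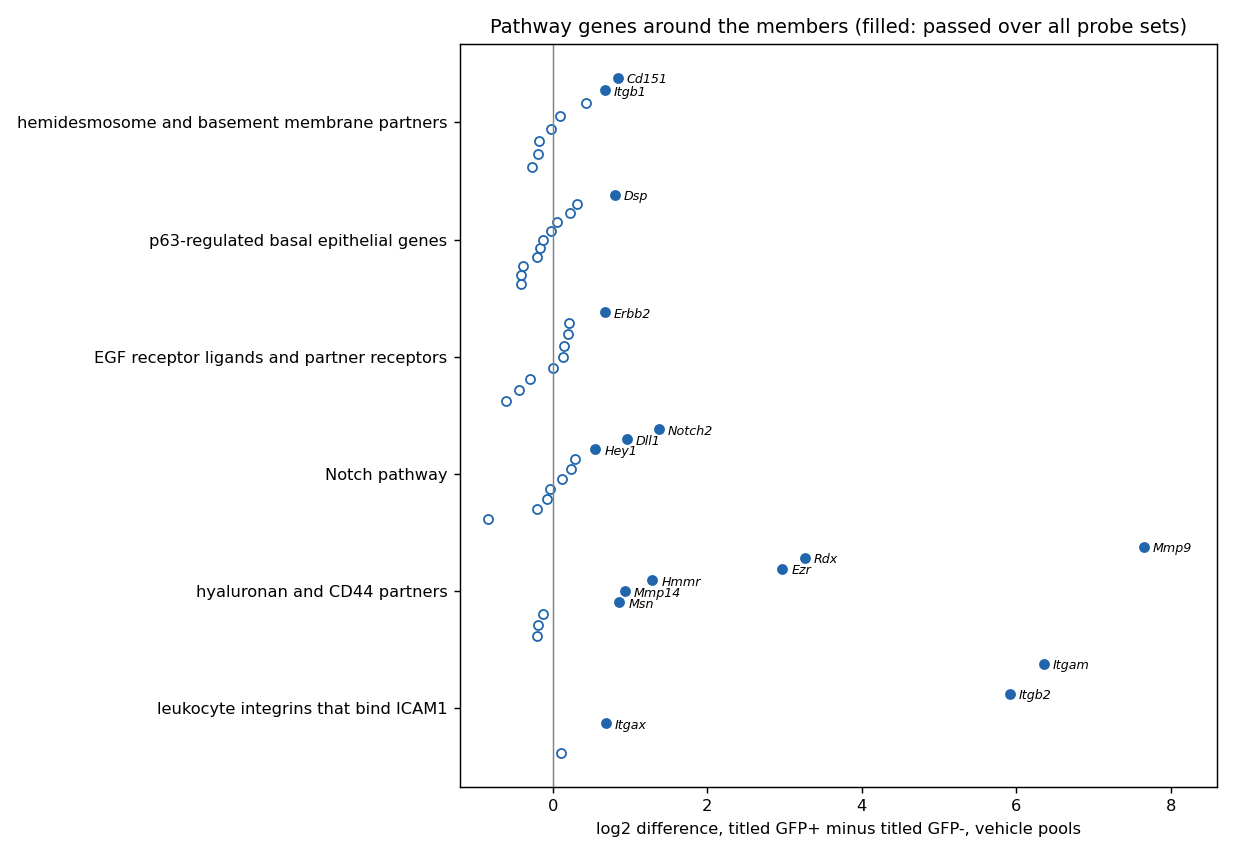
Log2 difference, titled GFP+ minus titled GFP-, in vehicle pools for each measured gene (circle) of the 6 lists. Filled and named circles passed at a limma adjusted p under 0.05 over all probe sets, and Mmp9 (7.65), Itgam (6.35) and Itgb2 (5.91) stand farthest right.

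Cell types next to horizontal basal cells in the tissue were also read, beside 13.2% of all probe sets that passed between fractions of undecanal pools and 13.9% in vehicle pools. Of 5 globose basal and proliferation genes, 4 passed as higher in titled GFP+ of undecanal pools and 3 of vehicle pools. Mki67, a marker of dividing cells, was higher by 4.85 (limma adjusted p = 4.01e-08) and 5.11 (limma adjusted p = 2e-08), and Kit by 2.68 (limma adjusted p = 1.96e-08) and 2.95 (limma adjusted p = 5.25e-09). Of 7 genes of suprabasal squamous epithelium, 0 passed in either agent. Endothelial cells had 1 and 0 of 7 passing in undecanal and vehicle pools, ensheathing glia 0 and 0 of 6, and fibroblasts 1 and 2 of 7, of which 1 in vehicle pools was lower. With median centring more of these passed as lower, in undecanal and vehicle pools 2 and 3 of 7 suprabasal, 2 and 3 of 7 endothelial, 3 and 1 of 6 glial and 2 and 4 of 7 fibroblast genes. Of the 22206 probe sets, 11129 (undecanal) and 11231 (vehicle) passed as lower with that centring. These counts of lower genes therefore do not set the lists apart from the array. As deposited, immature neurons had 3 and 5 of 8 higher, and respiratory cells 4 and 4 of 7. Of 16 mature neuron genes 3 and 4 were lower in titled GFP+, and in vehicle pools this was 16 with median centring and 0 with centring on that list. With undecanal 0 genes of any of these cell type lists passed in either fraction. Of the globose basal and proliferation genes, Mki67 and Top2a had means above background in all 4 groups, Kit and Lgr5 in 2, and Neurog1 in 0. Krt5, Krt14 and Trp63 were below it on every array.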

How the data were processed

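The authors deposited log2 probe set levels for 16 Clariom S arrays. Per the submitters' processing notes they used Affymetrix Expression Console. Which summary algorithm and which annotation build they took is not stated in the labels. Of 28846 rows, 6640 control rows were left out and 22206 tested, of which 19572 had 1 gene. All 19572 matched the RefSeq table of GRCm38.p6. No other scaling was applied.

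Samples were grouped by title. A limma model (version 3.58.1, lmFit and eBayes, R 4.3.3) estimated 4 group means from the 16 arrays together, without a block, and gave 5 contrasts, with Benjamini-Hochberg adjustment over all probe sets at a threshold of 0.05. The number of arrays limits the precision. Arrays correlated with r of 0.989 to 0.993 within groups and 0.953 to 0.975 between fractions, and 0 pairs were identical. The fit was tested on simulated data.

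The genes and lists were chosen with earlier results of these data known, including the Itga6 difference between fractions. All 8 genes are named. From each pathway list up to 4 passing genes with the largest difference in vehicle pools are named, else the 2 with the smallest p, and from each cell type list up to 2, of which the text gives part. 15 listed genes are not analysed here. Since 24 mice in 3s give 8 pools, arrays of 1 agent with the same number were read as fractions of the same mice, and the labels are the source of this pairing. Their deviations from group means correlated with r of 0.0502 to 0.271, over 0.1 in 6 of 8 pools. Alternatives were other scalings, filters, priors, weights, blocks and left-out pools.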

Additional observations from a re-analysis of the deposited data

Results flagged for a closer look

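Of 40 groups of 4 arrays examined over the 8 genes, S100a5 and Omp, 1 held an array set far from the others. Omp read 18.71 on the vehicle array titled GFP- of pool 2, where the other 3 arrays were at 18.87. The gap was 0.989 of the range of that group, and chance sets an array apart in about 5% of groups. None of the 8 genes had such an array.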

How the results depend on the processing

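Each comparison was repeated under up to 16 alternatives. Of 523 values of the 7 tested genes, 513 kept their side of the threshold, 10 newly passed and 0 lost a call. The only call to lose was that of Itga6 in vehicle pools. With undecanal in either fraction and for the interaction, at most 1 probe set of all passed in any alternative. The count of kept values is therefore no measure of robustness. Differences that did not pass could change sign, as that of Egfr between fractions of vehicle pools did (-0.11 to 0.52). The Itga6 difference in vehicle pools passed in 16 of 16 (1.13 to 1.84, limma adjusted p 0.000169 to 0.0246). These alternatives use the same arrays, whose Itga6 difference was known when the genes were chosen. For undecanal in titled GFP+ the 1 passing probe set of all became 0 in a fit of those 2 groups alone, and Cd44 turned to -0.06 without undecanal pool 2, against 0.13, in a range of -0.06 to 0.41 over left-out pools. Median centring of arrays gave 12713 passing probe sets between fractions of undecanal pools (2929 as deposited) and 12801 in vehicle pools (3097 as deposited). Higher and lower counts were 1869 and 1752 with quantile normalization and 2764 and 436 with centring on mature neuron genes in undecanal pools, and 1876 and 1830, and 3206 and 441, in vehicle pools. The median of all probe sets in vehicle pools was -0.11, and it was -0.469 with median centring and 0.161 with mature neuron centring. Of the 7 genes, 2 passed with median centring in undecanal pools (Krt5 at -0.74 and Trp63 at -0.91) and 3 in vehicle pools (Krt5 at -0.67, Trp63 at -0.59 and Itga6). With mature neuron centring 1 passed in undecanal pools (Egfr at 0.59) and 3 in vehicle pools (Icam1 at 0.93, Egfr at 0.52 and Itga6). In vehicle pools 2 passed with quantile normalization and 2 with array weights, Icam1 at 0.68 in each beside Itga6. With the pool as a replicate block 1 passed in undecanal pools, Trp63 at -0.55, and the block changed no other call of the 7 genes. Leaving out 1 pool at a time gave 2187 to 2901 passing probe sets in undecanal pools and 2298 to 3099 in vehicle pools, and changed no call of the 7 genes. Cd44 then ranged over 2.02 to 2.81 with undecanal in titled GFP-, and over 3.62 to 3.91 and 5.70 to 6.40 between fractions of undecanal and vehicle pools. Of 645 values of other named genes, 38 lost their call, among them Cd151, Dsp, Hey1, Itgax, Erbb2, Hmmr, Dll1 and Itgb1 under a scaling, a changed spread estimate or a left-out pool, and the cause was not tested. A mean over probe sets of a gene was not run, since each of the 8 genes has 1. Below background, an array gives no order of levels.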
